A study of Mus musculus with 45 samples.

Results

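The genes described here are the amino acid transporters of the solute carrier families Slc1, Slc3, Slc6, Slc7, Slc36, Slc38 and Slc43, measured in the colonic epithelium of mice. They were chosen by symbol alone, and 64 of the 24918 entries of the count table matched. Of these, 61 were carriers and 3 were genes named for the opposite strand of one (Slc36a1os, Slc6a19os and Slc7a6os). The carriers comprised 7 genes of family 1, 2 of family 3, 19 of family 6, 15 of family 7, 4 of family 36, 11 of family 38 and 3 of family 43.

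All mice were C57BL/6 males (C57BL/6J in the study's methods) that entered the experiment at 6 weeks of age, with 5 mice per group for each assay. Control mice (LF) were kept for 20 weeks on a low-fat diet, in which fat gave 10% of the energy. Obese mice (HF) were kept for 20 weeks on a diet in which fat gave 60%. By the study's methods, lard was the fat of both diets. Formerly obese mice (HFLF) had the 60% diet during 15 weeks and the 10% diet during the last 5 weeks. They differ from the obese mice in the diet of the last weeks and not in age. The study reports that their body weight had returned to normal, so recent diet and body weight cannot be told apart in that comparison. Epithelium was released with EDTA from the entire colon, so proximal and distal parts were pooled in each mouse. RNA-seq libraries held 15230391 to 22762095 gene counts, and whole-genome bisulfite sequencing gave a list of differentially methylated regions (DMRs) between obese and control mice.

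Amino acids cross the epithelial membrane through carriers that differ in the driving force they use. Families 6 and 38 move their substrates together with sodium, family 36 together with protons, and the excitatory amino acid carriers of family 1 take up glutamate and aspartate. Family 7 holds cationic amino acid transporters, such as Slc7a1 and Slc7a2, which need no partner, and light chains, which are mostly exchangers and reach the membrane bound to a heavy chain of family 3. Slc3a1 (rBAT) pairs with Slc7a9 (b0,+AT) in the apical carrier for cystine and dibasic amino acids whose loss causes cystinuria, and Slc3a2 (4F2hc, CD98) pairs with Slc7a5, Slc7a6, Slc7a7, Slc7a8 and Slc7a11, among others. Several family 6 members carry other molecules. Slc6a4 takes up serotonin, Slc6a8 creatine, Slc6a6 taurine and Slc6a12 betaine.

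Levels of 1 gene are compared between mice as CPM (counts over the TMM-scaled library total), and levels of different genes as RPKM (CPM per kilobase of exon). The carriers together took 0.368% to 0.464% of all counts in a library. Slc6a14 (ATB0,+), a sodium- and chloride-coupled carrier of neutral and cationic amino acids, was the most abundant, at 487 ± 50.6 RPKM (SD, n = 15), the 99.3 percentile of the tested genes. It alone made up 44.0% ± 2.10 (SD, n = 5) of the summed RPKM of the carriers in control mice, 42.8% ± 2.18 in obese mice and 44.2% ± 2.21 in formerly obese mice. The creatine carrier Slc6a8 followed at 124 ± 11.8 RPKM and the glutamine exchanger Slc1a5 (ASCT2) at 108 ± 9.47 RPKM. The spread of these genes over the 15 mice was near the distance between them. Next came Slc38a2 (SNAT2), a sodium-coupled carrier of small neutral amino acids, at 58.0 ± 3.40 RPKM, the proton-coupled Slc36a1 (PAT1) at 44.9 ± 8.02 RPKM and Slc6a6 at 44.6 ± 2.52 RPKM.

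The heavy chains stood at 23.9 ± 2.14 RPKM (Slc3a2) and 23.2 ± 5.64 RPKM (Slc3a1), levels that did not differ beyond their spread. Among light chains, Slc7a7 (y+LAT1), which exchanges dibasic for neutral amino acids at the basolateral membrane, had 22.3 ± 1.98 RPKM and Slc7a9 had 9.84 ± 2.82 RPKM. Slc7a5 (LAT1), the exchanger for large neutral amino acids, had 4.21 RPKM. Slc6a19 (B0AT1), the main apical carrier of neutral amino acids in small intestine, had 0.353 RPKM, the 5.12 percentile. In all, 14 carriers were over 10 RPKM, 15 tested carriers were between 1 and 10 RPKM, and 10 tested carriers were under 1 RPKM.

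**Figure D1:**
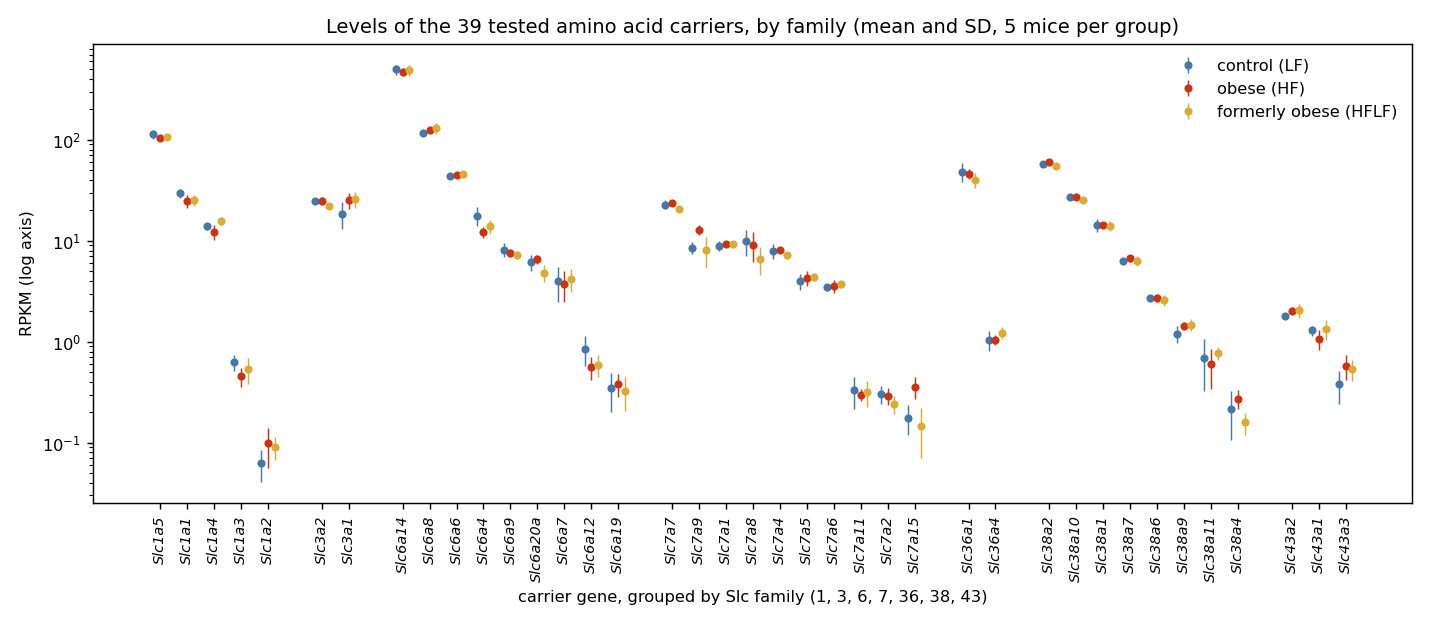
RPKM of the 39 tested carriers on a log axis, grouped by family, with 1 point per group (mean, bars give the SD over 5 mice). Slc6a14 stands highest at 487 RPKM over all mice, and in most genes the points of the 3 groups lie on top of each other.

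The test for differences kept 39 carriers and Slc7a6os, and 22 carriers were too low to be tested. Of the untested carriers, 6 had 0 counts in all 15 libraries. These were Slc1a7, Slc6a5, Slc6a11, Slc6a18, Slc7a12 and Slc7a13, of which Slc6a5 is known as a glycine carrier of neurons and Slc6a18 as a carrier of kidney. A gene at 0 may have had up to 3 counts, which is 0.132 to 0.197 CPM in these libraries, counting error only. The other 16 had 1 to 120 counts summed over all libraries. Of the tested carriers, 34 were over the level of the filter on low counts (0.61 CPM) in all 15 libraries, and 1, Slc7a15, passed it only through the obese group.

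The markers of the tissue were checked by lists. Epithelial markers summed to 14500 to 17400 CPM in every group, and smooth muscle markers to at most 2.70 CPM. Markers of other cells reached 58.1 CPM (immune cells, HF), 50.4 CPM (adipocytes, HFLF) and 30.7 CPM (fibroblasts, HFLF). Adipoq, Fabp4, Lep and Plin1 of the adipocyte list were under 1 count per library. Fibroblast scores (4 genes, mean log2 CPM) were 0.38 ± 0.84 (LF), 1.09 ± 0.46 (HF) and 1.24 ± 0.93 (HFLF). Their differences had exact permutation p = 0.175 to 0.77. Whether such cells contribute to carriers of a few CPM was not tested. Of the small intestine list, 9 of 14 genes were tested and Apoa4 was under 1 count per library. The summed level of that list was 387 to 730 CPM in control, 499 to 749 CPM in obese and 569 to 862 CPM in formerly obese mice, and its score (mean log2 CPM of the tested genes) was 3.84 ± 0.20, 4.32 ± 0.16 and 4.27 ± 0.08 (SD, n = 5 each). Posterior Hox genes, which mark the distal end of the gut, had a score of 4.22 ± 0.08, 4.03 ± 0.19 and 3.81 ± 0.12, with Hoxc10 under 1 count per library. The colonocyte list had a score of 9.79 ± 0.19, 9.80 ± 0.15 and 10.18 ± 0.11. The tuft cell list, 5 of 6 genes tested, had a score of 2.55 ± 0.24, 2.63 ± 0.09 and 2.96 ± 0.19, and formerly obese mice were above obese mice by 0.33 (exact permutation p = 0.00794, adjusted p = 0.0595 over 30 scores). In these bulk samples, fewer cells of a type and less RNA per cell cannot be told apart.

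A gene was called, by the cutoffs of the study, when it rose or fell by more than 1.2-fold with a p under 0.01 and an adjusted p under 0.25. Between obese and control mice, 3 carriers were called, where 1.58% of all 12961 tested genes were called (0.718% higher, 0.864% lower). Slc7a9 and Slc7a15 rose and Slc6a4 fell. Between formerly obese and control mice, 0 carriers were called by edgeR, beside 3.72% of all tested genes (1.85% higher, 1.87% lower), and DESeq2 called 1 (Slc6a4). In edgeR, 9 of the 39 carriers had an unadjusted p under 0.05, beside 16.7% of all tested genes. Between formerly obese and obese mice, 4 carriers were called, beside 2.65% of all genes (1.23% higher, 1.42% lower). Slc1a4 rose, and Slc7a9, Slc7a15 and Slc6a20a fell. Slc7a15 passed the filter on low counts only through the obese group. Its calls in both comparisons with obese mice were favoured by that. At an adjusted p under 0.05 without the fold cutoff, 0 carriers were called by edgeR in any comparison, beside 0.123%, 2.18% and 0.193% of all genes in the 3 comparisons. An unadjusted p under 0.05 was seen in 9 carriers in each, beside 10.9%, 16.7% and 13.4% of all genes. The calls below are therefore held at a false discovery rate of up to 0.25. The comparisons share groups, so that a deviation of the obese mice enters both the first and the third.

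**Figure D2:**
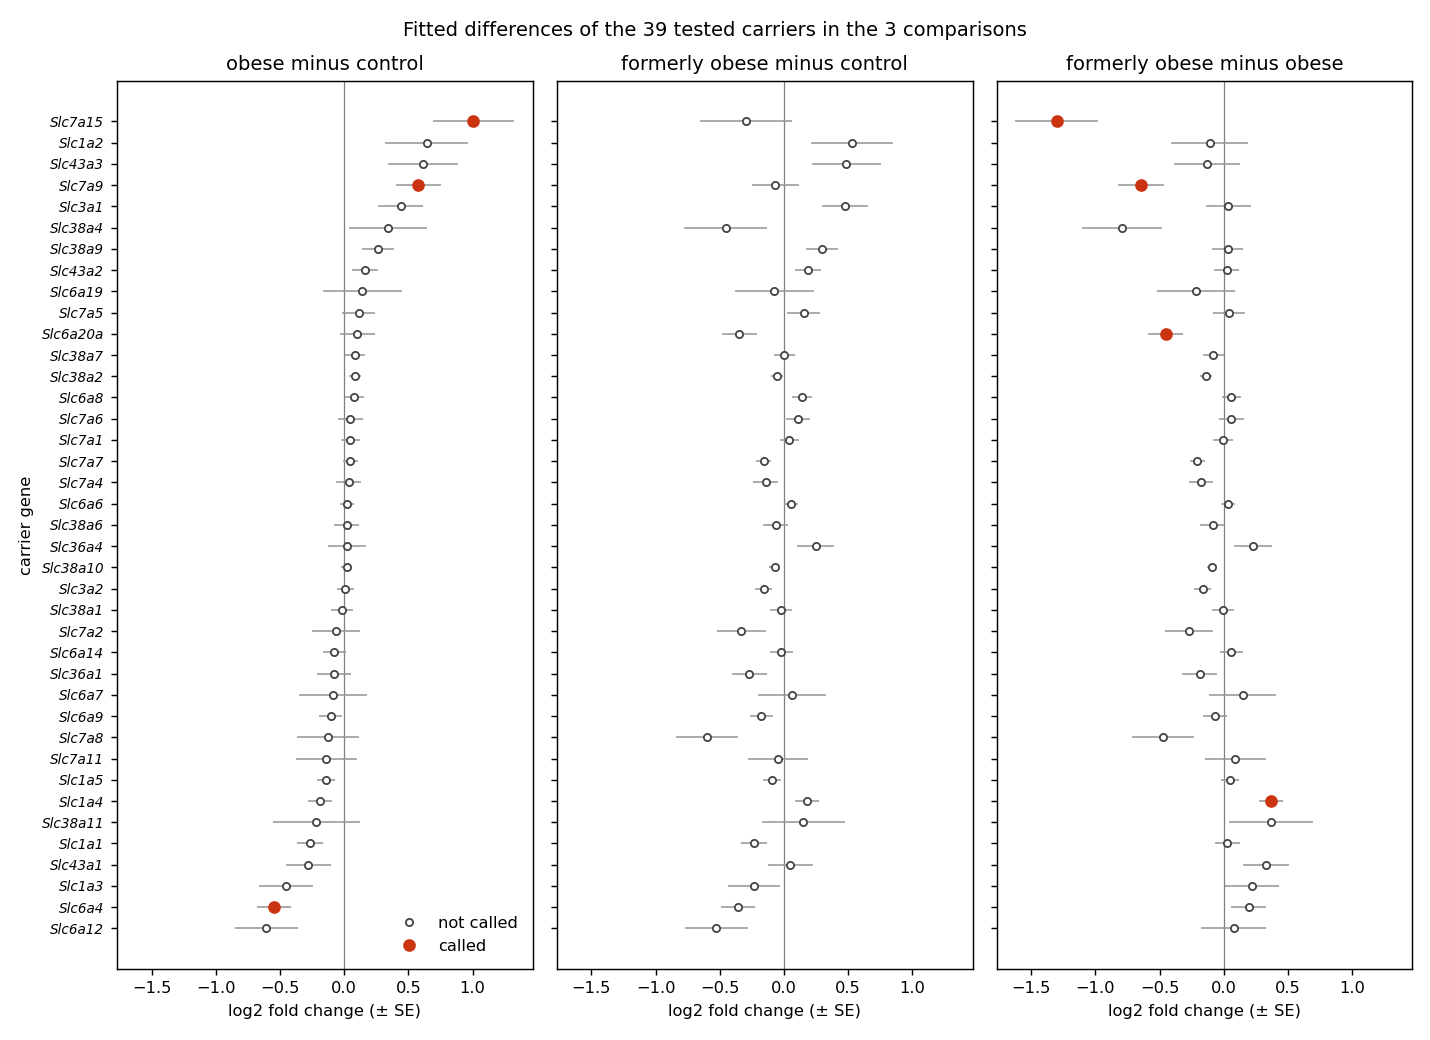
Fitted log2 fold changes (points) with their SE (bars) of the 39 tested carriers in each comparison, ordered by the first. Filled points are the called genes, 3 in obese against control mice, 0 in formerly obese against control mice and 4 in formerly obese against obese mice.

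Of the subunits of the cystine carrier, the light chain Slc7a9 rose in obese mice and fell again in formerly obese mice, while the heavy chain Slc3a1 did not pass the call rule. Slc7a9, at chr7:35449092-35466034 on the plus strand of mm10, stood at 18.9, 19.8, 16.0, 14.3 and 15.9 CPM in the 5 control mice. In the obese mice it stood at 23.3, 24.7, 25.8, 22.8 and 30.1 CPM, and in the formerly obese mice at 16.4, 19.9, 12.3, 23.2 and 9.33 CPM. Every obese mouse was above every control mouse, while the formerly obese mice spread from below the lowest control mouse to the lower edge of the obese range. The log2 fold change was 0.58 ± 0.18 (SE) in obese against control mice (edgeR, adjusted p = 0.225) and -0.65 ± 0.18 in formerly obese against obese mice (edgeR, adjusted p = 0.109). Against control mice the formerly obese mice differed by -0.07 ± 0.18 (edgeR, adjusted p = 0.892). The study names this gene from these same libraries, so its direction is not independent evidence. The first call lies close to the cutoff. It was kept without obese mouse 2 and lost without any 1 of the other 9 mice of the comparison (adjusted p = 0.264 to 0.446 in edgeR), with log2 fold changes of 0.51 to 0.64 over the 10 fits. The call in formerly obese against obese mice was kept in all 10 such fits of its comparison, with log2 fold changes of -0.81 to -0.50. Both calls were kept under the other scalings and filters and in DESeq2, and both were lost at an adjusted p under 0.05.

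The heavy chain Slc3a1, at chr17:85028347-85064241 on the plus strand, stood at 44.8, 26.5, 54.6, 54.2 and 34.0 CPM in control mice. Obese mice had 45.0, 49.3, 68.1, 61.3 and 67.0 CPM and formerly obese mice 69.5, 48.6, 60.8, 70.0 and 49.0 CPM. Both diet groups overlapped the control mice, whose values spread more than 2-fold, with the lowest in mouse 2. The differences from control mice were 0.44 ± 0.18 in obese mice (edgeR, adjusted p = 0.375) and 0.48 ± 0.18 in formerly obese mice (edgeR, adjusted p = 0.174), neither called. The first was called without control mouse 4 (0.54, adjusted p = 0.229 in edgeR). The second was called without control mouse 3 or 4 or formerly obese mouse 2 or 5 (0.54 to 0.58, adjusted p = 0.0870 to 0.153 in edgeR), and without the filter on low counts (0.48, adjusted p = 0.184 in edgeR). The mean of Slc3a1 in formerly obese mice was near that of obese mice (0.04 ± 0.17, adjusted p = 0.958 in edgeR), while that of Slc7a9 was near that of control mice. Slc3a1 and Slc7a9 are also abundant in small intestine. The score of the small intestine list given above was higher in obese than in control mice by 0.48 (exact permutation p = 0.00794, the smallest that 5 against 5 can give, adjusted p = 0.0595 over 30 scores). In formerly obese mice this score was higher than in control mice by 0.43 (exact permutation p = 0.00794, adjusted p = 0.0595). Against obese mice it differed by -0.05 (exact permutation p = 0.54). Its part in the result was not tested.

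The ratio of the light to the heavy chain, per length of exon, was examined after these values were seen. It was 0.510 ± 0.224 (SD, n = 5) in control mice, 0.516 ± 0.0789 in obese mice and 0.319 ± 0.109 in formerly obese mice. On the log2 scale the formerly obese mice were lower than obese mice by a difference of -0.75 (exact permutation p = 0.0238, two-sided, adjusted p = 0.143 over 6 tests), and the 2 groups overlapped. Against control mice the difference was -0.64 (exact permutation p = 0.103, adjusted p = 0.206). The difference between obese and control mice was 0.11 (exact permutation p = 0.746). None of the 3 passed an adjusted p of 0.05.

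**Figure D3:**
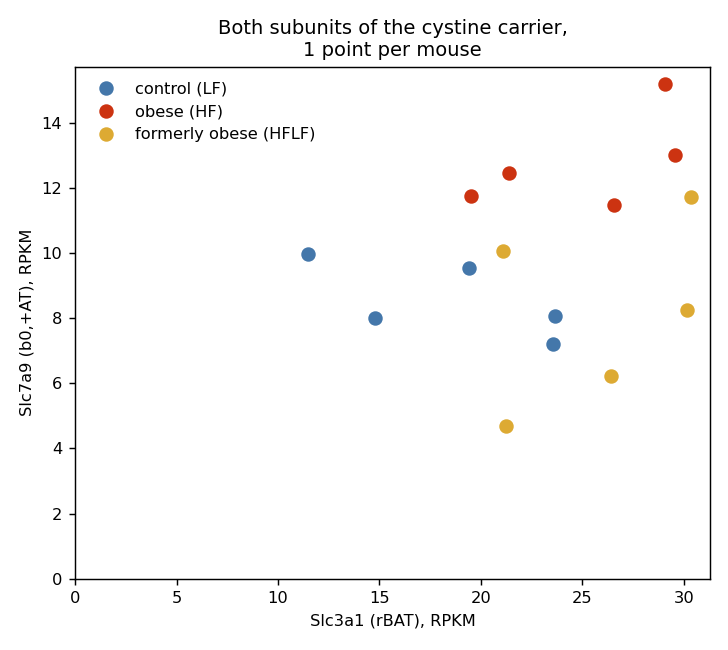
RPKM of Slc7a9 (y axis) against RPKM of its heavy chain Slc3a1 (x axis), 1 point per mouse. The 5 obese mice lie above all control mice on the y axis, and formerly obese mice reach as far to the right as obese mice with Slc7a9 between 4.70 and 11.7 RPKM.

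Across the 15 mice, with the mean of each group subtracted, log2 CPM of Slc3a1 and Slc7a9 gave a Pearson r of 0.081 (permutation p = 0.776) and a Spearman rho of 0.086 (permutation p = 0.762). Without the 2 mice farthest on the x axis (control mouse 2 and obese mouse 1), r was 0.228. For Slc3a2 and Slc7a5, r was -0.296 (permutation p = 0.285) and rho -0.45 (permutation p = 0.0934), and r was -0.197 without the 2 farthest mice. After adjustment over the 3 pairs examined, the p-values of r for these pairs were 0.776 and 0.427. Neither pair of subunits was shown to vary together between mice of a group at this number of mice.

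Promoter sequences from RefSeq (GRCm38.p6, the build of mm10) are shown for the 2 subunits and for Slc1a4, the carrier that rose in formerly obese against obese mice. Each runs from 150 bases before the gene start to the 30th base of the gene, 5′ to 3′ on the strand of the gene. Capitals mark a match, on either strand, to letters known from the sites of HNF4A (CAAAGTCCA), of HNF1 (TTAATNATT) or of the amino acid response element bound by ATF4 and C/EBP proteins (TGATGNAA). These 3 motifs were chosen after the data were seen, and the HNF1 letters after reading the promoter of Slc7a9.
Slc3a1, chr17:85028197-85028376, plus strand: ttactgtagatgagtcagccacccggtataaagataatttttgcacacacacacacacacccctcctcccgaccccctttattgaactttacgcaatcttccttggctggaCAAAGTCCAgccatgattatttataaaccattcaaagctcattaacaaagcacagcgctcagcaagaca
Slc7a9, chr7:35448942-35449121, plus strand: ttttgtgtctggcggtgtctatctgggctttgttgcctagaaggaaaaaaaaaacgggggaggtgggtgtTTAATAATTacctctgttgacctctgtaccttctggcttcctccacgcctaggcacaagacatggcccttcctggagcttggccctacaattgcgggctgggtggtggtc
Slc1a4, chr11:20332684-20332863, minus strand: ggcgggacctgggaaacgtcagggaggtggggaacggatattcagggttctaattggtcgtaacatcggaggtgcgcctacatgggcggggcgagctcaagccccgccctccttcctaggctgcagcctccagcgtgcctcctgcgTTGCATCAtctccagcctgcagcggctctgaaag

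The match began 39 bases upstream of the start in Slc3a1, 80 bases upstream in Slc7a9, and 4 bases upstream, on the reverse strand, in Slc1a4. Promoters of 300 bases (250 before and 50 after the start) were given for 43 carriers, 64 promoters in all. Promoters of 1 gene can overlap and share a match, as both promoters of Slc7a9 did, so genes were counted rather than promoters. The HNF4A letters were in 1 of the 43 carriers (2.33%), Slc3a1, beside 0.555% of 27025 genes. The HNF1 letters were at Slc7a8 and Slc7a15 in 2 of the 42 carriers other than Slc7a9 (4.76%), whose promoter was read before they were chosen, beside 1.72% of all genes. The amino acid response letters were in 3 of the 43 carriers (6.98%), Slc1a4, Slc7a7 and Slc7a11, beside 4.51%. Of the 32851 promoters of all genes, 0.475% held the HNF4A letters, 1.47% the HNF1 letters and 3.97% the amino acid response letters. A match describes the letters and not a bound site.

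Slc7a15, which encodes an exchanger of aromatic amino acids, was near the detection limit and rested on 4 to 23 counts per library. It was over the filter level in 5 obese mice, 1 control mouse and 1 formerly obese mouse, so it was tested only because the obese mice were high, and a difference from them was favoured by the filter. Control mice had 0.498, 0.458, 0.434, 0.431 and 0.836 CPM. Obese mice had 1.07, 0.795, 1.36, 0.811 and 1.32 CPM, and formerly obese mice 0.757, 0.439, 0.223, 0.548 and 0.226 CPM. Every obese mouse was above every formerly obese mouse, and only control mouse 5 reached into the obese range. The log2 fold change was 1.01 ± 0.32 in obese against control mice (edgeR, adjusted p = 0.234) and -1.30 ± 0.32 in formerly obese against obese mice (edgeR, adjusted p = 0.0812). The first call was kept without control mouse 5 and without obese mouse 2, and lost without any 1 of the other 8 mice (adjusted p = 0.265 to 0.499 in edgeR). It was also lost without the filter on low counts (edgeR, adjusted p = 0.317), and DESeq2 gave no adjusted p for the second.

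**Figure D4:**
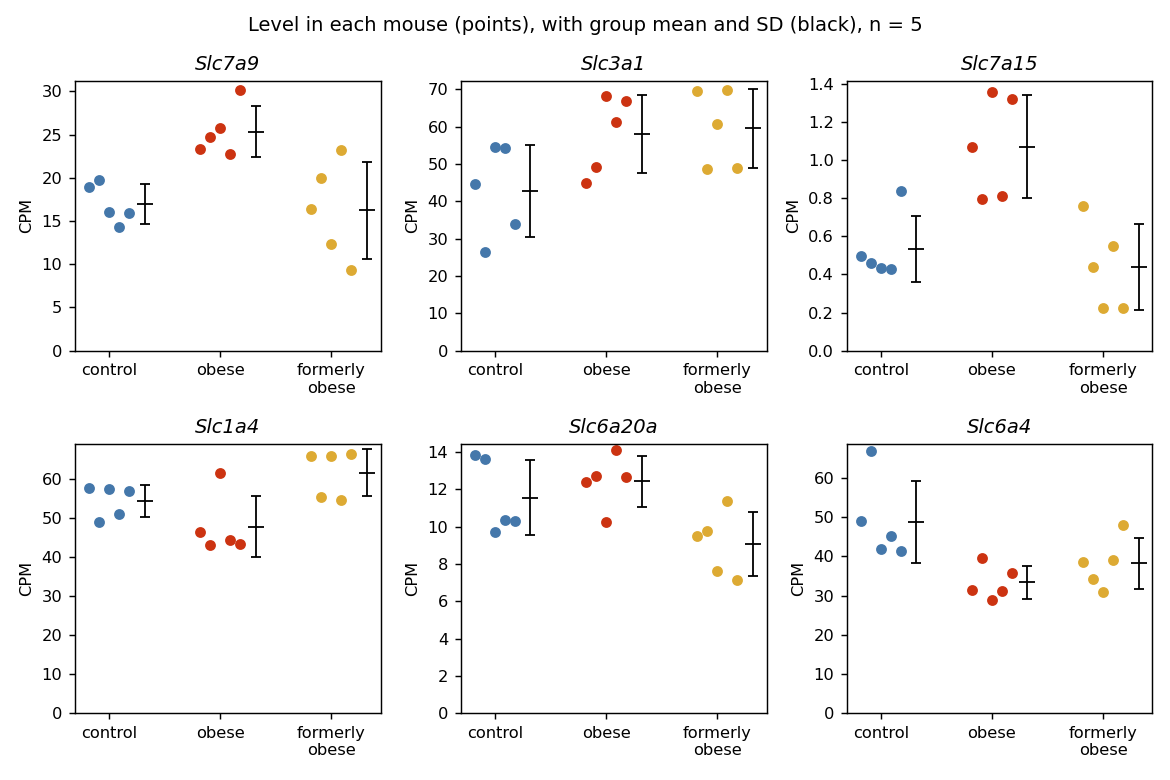
CPM of 6 carriers in each mouse (points), with the group mean and SD in black, n = 5 per group. In Slc7a9 the obese mice (22.8 to 30.1 CPM) lie above all control mice (14.3 to 19.8 CPM), in Slc6a4 they lie below them, and in Slc7a15 they lie above all formerly obese mice.

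Slc3a2 and its light chains Slc7a5, Slc7a7 and Slc7a8 were called in no comparison. Slc3a2 itself had 73.1 ± 5.32 CPM in control, 73.6 ± 6.77 CPM in obese and 65.6 ± 4.01 CPM in formerly obese mice (SD, n = 5 each). It differed by -0.17 ± 0.07 in formerly obese against obese mice and by -0.16 ± 0.07 against control mice, under the fold cutoff (edgeR, adjusted p = 0.269 and 0.231). Slc7a7 had 64.8, 65.3, 59.6, 65.7 and 60.6 CPM in obese mice and 56.2, 57.2, 52.6, 53.4 and 54.7 CPM in formerly obese mice. The groups did not overlap, and the log2 fold change of -0.21 ± 0.06 (edgeR, adjusted p = 0.128) was too small for the fold cutoff. Control mice, at 55.2 to 70.7 CPM, overlapped both. Slc7a8 (LAT2), a basolateral exchanger of neutral amino acids, had 40.3 ± 11.8 CPM in control, 37.0 ± 12.2 CPM in obese and 26.7 ± 8.24 CPM in formerly obese mice. Its difference of -0.60 ± 0.24 in formerly obese against control mice was not called (edgeR, adjusted p = 0.214). Slc7a5 had 13.9 ± 2.56, 15.0 ± 2.44 and 15.5 ± 1.32 CPM in control, obese and formerly obese mice, and its differences were 0.04 to 0.15.

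Among the neutral amino acid carriers of family 6, Slc6a20a (SIT1), which carries proline and other imino acids, was lower in formerly obese mice. It stood at 13.8, 13.6, 9.73, 10.3 and 10.3 CPM in control mice, 12.4, 12.7, 10.3, 14.1 and 12.7 CPM in obese mice and 9.50, 9.78, 7.65, 11.4 and 7.13 CPM in formerly obese mice. Formerly obese mice 3 and 5 were the lowest of all 15, and mouse 4 of that group overlapped the lowest obese mouse. The log2 fold change was -0.45 ± 0.14 against obese mice (edgeR, adjusted p = 0.139) and -0.35 ± 0.14 against control mice, the latter not called (edgeR, adjusted p = 0.197). The first call was lost without obese mouse 1, 2 or 4 or formerly obese mouse 3 or 5 (adjusted p = 0.246 to 0.346 in edgeR, or p over 0.01). Its close copy Slc6a20b had 35 counts in all libraries, and reads may be split between them. Formerly obese mice 3 and 5 were also the lowest of their group for genes that include Slc7a9, Slc7a8, Slc7a15 and Slc36a1. They were the highest of the group for others, among them Slc1a4, Slc7a6, Slc38a10 and Slc43a2. Both sets of genes were picked after their values were seen. The posterior Hox score of the formerly obese group, a mean over all 5 mice, was 0.41 below that of control mice (exact permutation p = 0.00794, adjusted p = 0.0595 over 30 scores). The part of the Hox difference in these results was not tested.

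Slc6a14 did not differ detectably between groups. It had 1642, 2006, 1764, 1637 and 1506 CPM in control mice, 1497, 1790, 1442, 1708 and 1665 CPM in obese mice and 1604, 1970, 1402, 1740 and 1725 CPM in formerly obese mice. The ranges of the 3 groups overlapped, and the highest obese mouse was below the highest mouse of either other group. Its log2 fold changes were -0.08 ± 0.09, -0.02 ± 0.09 and 0.06 ± 0.09 in the 3 comparisons (edgeR, adjusted p = 0.807, 0.943 and 0.833). Slc6a19 had 1.42 ± 0.597, 1.57 ± 0.408 and 1.33 ± 0.495 CPM in control, obese and formerly obese mice, at most 2.18 CPM in any mouse, and was called in no comparison.

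The serotonin carrier Slc6a4 was the member that fell in obese mice. Serotonin is released in the gut by enterochromaffin cells and removed by this carrier on epithelial cells. Slc6a4, at chr11:76998597-77032343 on the plus strand, stood at 48.9, 66.7, 41.7, 45.2 and 41.3 CPM in control mice. Obese mice had 31.4, 39.5, 28.8, 31.3 and 35.7 CPM and formerly obese mice 38.6, 34.1, 31.0, 39.0 and 48.0 CPM. No obese mouse reached the lowest control mouse, while 4 formerly obese mice lay within the obese range and 1 within the control range. The log2 fold change was -0.55 ± 0.13 in obese against control mice (edgeR, adjusted p = 0.134) and -0.35 ± 0.13 in formerly obese against control mice (edgeR, adjusted p = 0.174), the latter not called. Formerly obese and obese mice differed by 0.19 ± 0.13 (edgeR, adjusted p = 0.580). The first call was lost without control mouse 2, the highest, where the change was -0.41 (edgeR, adjusted p = 0.288), without obese mouse 3 (edgeR, adjusted p = 0.345) and without obese mouse 4 (edgeR, adjusted p = 0.253). The enteroendocrine list, 8 of 8 genes tested, had a score of 4.07 ± 0.44 (SD, n = 5) in control mice, 4.13 ± 0.35 in obese mice and 4.09 ± 0.44 in formerly obese mice, a difference of 0.06 between obese and control mice (exact permutation p = 0.81).

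The carriers of osmolytes in family 6 did not pass the call rule. Slc6a12 had 2.59 ± 0.829 CPM in control, 1.70 ± 0.436 CPM in obese and 1.80 ± 0.456 CPM in formerly obese mice, with log2 fold changes of -0.61 ± 0.25 and -0.53 ± 0.24 against control mice (edgeR, adjusted p = 0.389 and 0.286). Slc6a8 had 470 ± 30.9, 497 ± 30.1 and 518 ± 66.4 CPM, with differences of 0.06 to 0.14.

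In family 1, the exchanger Slc1a4 (ASCT1), which carries serine, alanine and cysteine, rose in formerly obese against obese mice. At chr11:20302180-20332713 on the minus strand, it stood at 57.7, 49.1, 57.7, 51.1 and 57.1 CPM in control mice, 46.4, 43.2, 61.6, 44.5 and 43.4 CPM in obese mice and 65.9, 55.5, 66.0, 54.8 and 66.5 CPM in formerly obese mice. In 4 obese mice it was lower than in any control or formerly obese mouse, and obese mouse 3 was above all control mice. The log2 fold change was 0.37 ± 0.09 (edgeR, adjusted p = 0.0867), and 0.48 without obese mouse 3 (edgeR, adjusted p = 0.0130). In obese against control mice it was -0.19 ± 0.09 (edgeR, adjusted p = 0.480), not called, and without obese mouse 3 it was -0.30 and called (edgeR, adjusted p = 0.249). Its relative Slc1a5 differed by -0.14 ± 0.07 in obese and -0.09 ± 0.07 in formerly obese mice against control mice and was not called.

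The glutamate carrier Slc1a1 (EAAC1) had 108, 126, 101, 120 and 101 CPM in control mice. Obese mice had 96.2, 108, 72.0, 91.0 and 95.7 CPM and formerly obese mice 83.0, 113, 85.8, 91.5 and 99.8 CPM. Both groups were lower on average and overlapped the control mice. Log2 fold changes of -0.26 ± 0.10 and -0.23 ± 0.10 against control mice were not called (edgeR, adjusted p = 0.339 and 0.242).

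Families 36, 38 and 43 held no called gene. Slc36a1 had 256 ± 54.1, 242 ± 28.6 and 212 ± 35.9 CPM in control, obese and formerly obese mice, and Slc36a4 5.77 ± 1.31, 5.86 ± 0.659 and 6.85 ± 0.869 CPM. Slc38a2, which is induced when amino acids are scarce, had 268 ± 15.8, 284 ± 11.1 and 258 ± 9.06 CPM and differed by -0.14 ± 0.05 in formerly obese against obese mice (edgeR, adjusted p = 0.186), under the fold cutoff. Slc38a9, the lysosomal arginine sensor upstream of mTORC1, had 10.6 ± 1.99, 12.8 ± 1.18 and 13.1 ± 1.77 CPM, with log2 fold changes of 0.26 ± 0.12 and 0.29 ± 0.12 against control mice, not called (edgeR, adjusted p = 0.456 and 0.228). Slc38a10 had 146 ± 4.49, 148 ± 3.18 and 138 ± 7.34 CPM. The large neutral amino acid carriers Slc43a1 and Slc43a2 had 3.78 ± 0.421 and 13.1 ± 0.945 CPM in control mice and differed by at most 0.33 in any comparison.

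Over the 39 tested carriers, 23 fold changes were above 0 and 16 below in obese against control mice, with a median of 0.022 beside 0 over all tested genes. In formerly obese against control mice 16 were above and 23 below, with a median of -0.053 beside -0.001. The median absolute log2 fold change of the carriers was 0.11, 0.16 and 0.13 in the 3 comparisons, beside 0.07, 0.09 and 0.08 over all tested genes. Slc7a6os, which lies beside Slc7a6 on the other strand, differed by -0.08 to 0.11 and was not called.

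Genes around the carriers were read from lists. Their calls stand beside 1.58%, 3.72% and 2.65% of all tested genes in the 3 comparisons. Their counts at an unadjusted p under 0.05 in edgeR stand beside 10.9%, 16.7% and 13.4% of all tested genes. Of 22 tested genes of the amino acid response driven by ATF4, 0 were called in obese against control mice, and 0, 3 and 5 had an unadjusted p under 0.05 in edgeR in the 3 comparisons. In formerly obese against control mice 1 was called, the stress-induced factor Atf3, which fell by 0.57 on the log2 scale (± 0.17 SE, edgeR, adjusted p = 0.0887). In formerly obese against obese mice 1 was called, the factor Cebpb, which fell by 0.53 (± 0.14 SE, edgeR, adjusted p = 0.0964). The other 4 of the 5, named after their values were seen, had log2 fold changes of -0.43 (Atf3), -0.10 (Atf4 itself), -0.21 (Ddit4) and -0.24 (Sesn2), not called (edgeR, adjusted p = 0.262 to 0.353). Over all 22 genes of the list, 9 fold changes were above 0 and 13 below in that comparison, with a median of -0.014. Of 28 tested genes of amino acid sensing by mTORC1, 1 was called, Gatsl2, a relative of the arginine sensor CASTOR1, which rose in formerly obese against control mice by 0.75 ± 0.22 (edgeR, adjusted p = 0.0887). Of 15 tested carriers of amino acids and peptides in other families, 1 was called, Ctns, which exports cystine from lysosomes. It fell in obese against control mice by 0.30 (± 0.07 SE, edgeR, adjusted p = 0.0896). The partner proteins Anpep, Bsg and Cd44 were called in no comparison by edgeR, and Cd44 differed by 0.34 ± 0.16 in formerly obese against control mice (edgeR, adjusted p = 0.292).

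DNA methylation was read from the DMR list, which gives the position and direction of 8199 regions, 4123 with higher (hyper) and 4076 with lower (hypo) methylation in obese than in control mice, and no level per mouse. Within the gene or 5 kb of it, 13 of 61 carriers had a DMR (21.3%), beside 15.2% of all genes of the table. The carriers are longer, with a median span of 34.3 kb beside 13.7 kb, and a longer gene offers more room for a region. The 13 genes held 16 different DMRs, 9 hyper and 7 hypo. Of the 39 tested carriers 8 had one (20.5%), beside 16.5% of all tested genes. Of the 6 carriers with 0 counts 4 did too (Slc1a7, Slc6a5, Slc6a11 and Slc6a18), beside 8.34% of the 6512 genes with 0 counts. That comparison was made after the values were seen and takes no account of gene span. Of the called carriers, only Slc1a4 had a DMR within 5 kb, a hyper region in an intron 2.50 kb from the gene start.

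The regions at 6 carriers are shown, all short and at genes that were tested for expression. They were read from the plus strand of mm10, 5′ to 3′, and capitals mark the CG dinucleotides.
Slc1a1, chr19:28833297-28833313, hypo, upstream: CGtcagccatagcaaCG
Slc1a4, chr11:20330192-20330244, hyper, intron: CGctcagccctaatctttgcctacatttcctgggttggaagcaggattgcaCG
Slc38a4, chr15:97055737-97055742, hypo, intron: CGCGCG
Slc6a6, chr6:91736834-91736859, hyper, intron: CGggagggtgatggatggaggaccCG
Slc7a1, chr5:148388671-148388717, hypo, intron: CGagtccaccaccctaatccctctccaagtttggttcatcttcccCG
Slc7a8, chr14:54754234-54754254, hyper, intron: CGactcatacctcaatagaCG

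Each of these regions began and ended with a CG, which follows from the study's way of merging single CpGs into regions. In 5 of the 6 there were only those 2 CGs, the fewest that its definition allowed. The region at Slc1a1 lay 1.86 kb upstream of the gene start, and that at Slc38a4, a gene known to be imprinted in mouse, 0.22 kb inside it. The regions at Slc7a1, Slc7a8 and Slc6a6 lay 11.21, 27.64 and 52.78 kb into their genes. The expression of these 6 genes in obese against control mice differed by -0.26 (Slc1a1), -0.19 (Slc1a4), 0.34 (Slc38a4), 0.02 (Slc6a6), 0.05 (Slc7a1) and -0.13 (Slc7a8) on the log2 scale, none of them called. A further region, of 8 bases, lay in a coding exon of Slc6a19. Of the CpGs measured in amplicons of bisulfite PCR (233), 0 lay within 50 kb of a carrier.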

How the data were processed

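RNA-seq of 15 colonic epithelium samples was analysed from raw counts per gene, which the authors deposited after mapping paired reads to mm10 with TopHat2 2.0.4 (version per the submitters' processing notes) and counting with HTSeq. The strand mode and annotation release were not given in the sources used here, so counts of overlapping genes are uncertain. Tables of fold changes and p-values from DESeq2 that the authors deposited were not used. The DMR list the authors deposited holds positions (other values) and a direction, from reads mapped with Bismark 0.14.0 or 0.7.8. BSP-seq values were deposited as the fraction of methylated reads per CpG.

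Counts were filtered with filterByExpr, scaled by TMM and fitted over all 15 libraries with the quasi-likelihood test of edgeR 4.0.16 in R 4.3.3, with the group as the only term and p-values adjusted over 12961 genes by Benjamini and Hochberg. Log2 CPM used a prior count of 2. RPKM used the exon length in RefSeq GRCm38.p6, in which all 64 entries lay at an overlapping position. The fit was tested on simulated data. Scores and ratios were compared by two-sided exact permutation tests and correlations by 100000 permutations, in SciPy 1.17.1. No pair of libraries within a group agreed within sampling noise. Nothing in the labels says that the mice came from separate cages or litters. The p-values set group differences against the spread between these mice and take the mice as independent. If mice of a group shared a cage or litter, the p-values could be too small.

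Described in full were carriers called in any comparison, the 6 with the smallest p in each comparison, the 2 most abundant of each family, and Slc3a1, Slc7a9, Slc3a2, Slc7a5, Slc6a19 and Slc6a14. Genes of the amino acid response, amino acid sensing, partner protein and other carrier lists were named where called. Cell marker lists also held called genes in each comparison. Those are not named and were given only through the list scores. One pair examined for correlation is not reported here. The members and lists were chosen with earlier results of these data known. Alternatives were RLE and upper-quartile scaling, DESeq2 1.42.0, no filter or at least 10 counts in every library, the compared groups alone, a replicate block, an adjusted p under 0.05, leaving out each mouse and, added after seeing the data, removal of the GC trend of each library.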

Additional observations from a re-analysis of the deposited data

Results flagged for a closer look

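Among the 69 group values of the 23 named carriers, 3 had a mouse whose gap to the nearest of the other 4, divided by the range of the group, was over 0.71, and chance alone gives about 1 in 20. Slc1a4 stood at 61.6 CPM in obese mouse 3 beside 43.2 to 46.4 CPM in the other obese mice. Slc36a4, a proton-coupled carrier, stood at 5.32 CPM in formerly obese mouse 4 beside 7.02 to 7.34 CPM in the others of its group. Slc7a15 stood at 0.836 CPM in control mouse 5 beside 0.431 to 0.498 CPM, which is 13 counts beside 7 to 8.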

How the results depend on the processing

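Of 1307 values of named carriers under the alternatives, 1213 kept their direction and side of the call rule, 35 lost and 25 gained a call, and 34 reversed, all 34 when a mouse was left out. Without 1 mouse, called carriers ranged from 0 to 4 in obese against control mice (3 with all mice; 0.308% to 2.54% of all genes; 0 without control mouse 2 or obese mouse 4, and 1 without control mouse 1 or 3 or obese mouse 1, 3 or 5), from 0 to 3 in formerly obese against control mice (0 with all mice; 2.78% to 5.07% of all genes; 3 without control mouse 3 or formerly obese mouse 5, 2 without formerly obese mouse 2) and from 3 to 5 in formerly obese against obese mice (4 with all mice; 1.28% to 3.08% of all genes). At an adjusted p under 0.05, 0 were called in each comparison. In formerly obese against control mice, 1 was called by DESeq2 (beside 2.13% of all 24918 genes of the table), 2 without the filter (Slc3a1, Slc6a4; 3.10% of 18406 genes) and 4 with the replicate block (Slc3a1, Slc6a4, Slc6a20a, Slc7a8; 4.14% of 12961 genes). These shares have different bases and cannot be set against each other. The block gave 4 in obese against control mice (Slc1a1, Slc3a1, Slc6a4 and Slc7a9, without Slc7a15; 1.94%) and 4 in formerly obese against obese mice (2.67%), but the labels do not say that the numbers pair the mice. Same-numbered mice deviated with correlations of -0.231 to 0.333 (median -0.0561, beside 0.019 for other pairs), so a pairing was not evident. Such correlations cannot show whether same-numbered mice shared a cage or litter. Carriers with a DMR numbered 29 of 61 with a margin of 50 kb (beside 39.9% of all genes) and 11 of 61 without a margin (beside 11.2%).

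Fold changes near 0 changed sign between fits without 1 mouse. In obese against control mice the ranges were -0.16 to 0.04 (Slc36a1), -0.07 to 0.12 (Slc36a4), -0.04 to 0.05 (Slc3a2), -0.04 to 0.29 (Slc6a19) and -0.29 to 0.03 (Slc7a8). In formerly obese against control mice they were -0.03 to 0.18 (Slc43a1), -0.08 to 0.04 (Slc6a14), -0.28 to 0.08 (Slc6a19) and -0.23 to 0.08 (Slc7a9). In formerly obese against obese mice they were -0.05 to 0.09 (Slc1a1), -0.03 to 0.10 (Slc38a9), -0.04 to 0.10 (Slc3a1), -0.06 to 0.08 (Slc43a2), -0.08 to 0.18 (Slc6a12), 0.00 to 0.12 (Slc6a14), 0.00 to 0.12 (Slc6a8) and -0.04 to 0.11 (Slc7a5). The cause of these changes was not tested. Counts of 4 to 23 limit Slc7a15.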

Other observations

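Several carriers outside the naming rule, picked after their values were seen, had unadjusted p-values under 0.05 at low levels. Slc43a3, a carrier of purine bases, had 0.984 ± 0.356 CPM in control and 1.51 ± 0.418 CPM in obese mice (log2 fold change 0.61 ± 0.27, edgeR adjusted p = 0.420). Slc1a3 (GLAST), a glutamate carrier known from glia, had 2.62 ± 0.468 CPM in control and 1.92 ± 0.416 CPM in obese mice (-0.45 ± 0.21, edgeR adjusted p = 0.449). Slc38a4, whose intron holds the 6-base hypo region, had 1.14 ± 0.247 CPM in obese and 0.661 ± 0.164 CPM in formerly obese mice (-0.80 ± 0.31, edgeR adjusted p = 0.263).

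Slc6a20b, too low to be tested, was uneven between mice of a group. It had 10 counts in control mouse 1 and 0 in the other 4 control mice. In formerly obese mice it had 10, 3, 1, 9 and 0 counts, and in obese mice at most 1.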
